A study of Bos taurus with 24 samples.

Results

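The 36 genes described here code for the route from glucose to lactate and to the mitochondrial pyruvate dehydrogenase complex: the glucose carriers SLC2A1 and SLC2A3, the glycolytic enzymes and their regulators, lactate dehydrogenase, the monocarboxylate carriers SLC16A1 and SLC16A3, the mitochondrial pyruvate carrier, and pyruvate dehydrogenase with its kinases. They are set by a list of gene symbols, with no threshold on a measured value, and each was matched to an Ensembl cow gene. All 36 were found among the 27607 genes of the count table. Of these, 35 had enough counts to be tested, among 14298 genes tested in all. The regulator gene PFKFB1 had 0 counts in all 24 libraries, which over a group allows at most 0.0244 to 0.0402 CPM (a gene's counts scaled to a library of 1000000).

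RNA of bovine granulosa cells, the somatic cells that surround the oocyte, was sequenced in 24 libraries of 5 groups. Secondary follicles, which have no fluid-filled cavity yet, gave 4 libraries (secondary_GC). Early antral follicles gave 5 libraries of mural granulosa cells (early_MGC), which line the follicle wall, and 5 of cumulus cells (early_CC), which sit next to the oocyte. Late antral follicles gave 5 libraries of each type (late_MGC and late_CC). The labels used here name no breed, age, treatment, allele or agent. They give total RNA, a cDNA kit for very low input and transposase-made libraries. The study asks from which follicle stages granulosa cells can regrow transzonal projections, the thin processes that reach the oocyte, and whether gene expression changes alongside. Nothing says that replicates came from separate animals, so p-values measure only the spread between these samples, which may be technical.

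Glycolysis splits glucose to pyruvate in the cytosol. Pyruvate is then either reduced to lactate, which leaves the cell through monocarboxylate carriers, or carried into mitochondria and turned into acetyl-CoA by pyruvate dehydrogenase, which the PDK kinases switch off. The mammalian oocyte takes up little glucose and uses pyruvate that the cumulus cells around it supply.

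Libraries held between 8379801 and 31762400 counts (median 18070281.5). The labelled cell type was checked against granulosa markers. The gonadotrophin receptor FSHR averaged 260.1 to 359 CPM in the 5 groups. Of the same list FOXL2 averaged only 0.512 to 2.27 CPM and CYP19A1 6.57 to 39.9 CPM, while the others averaged at least 64.7 CPM. The 3 libraries with the lowest mean correlation with the rest of their own group were late_MGC 3 (0.861), late_CC 3 (0.9054) and early_MGC 4 (0.9056), with secondary_GC 2 next at 0.910. The library labelled late_MGC 3 went against its label. It held 10.6 CPM of FSHR and 2.73 CPM of AMH, another granulosa product, and 1621 CPM of the stromal matrix gene LUM. The 7 theca and stroma markers in the table summed to 1964 CPM there and to 199.9 to 364 CPM in the other 4 late_MGC libraries. Most of that sum was LUM, and INSL3 alone of the 7 was lower there, at 1.87 CPM against 190.4 to 349. In late_CC 3 the inhibin subunit INHBA stood at 191 CPM against 4889.8 to 11334 in the other 4 late_CC libraries, and FSHR at 301 against 330 to 397. In early_MGC 4, the shallowest library, the granulosa markers summed to 850.4 CPM against 1028 to 1287 in the other 4. Member calls that changed when these 3 libraries were left out are named after the counts below. The fits without them were chosen after the data were seen.

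Other cell types were looked for with marker lists. The 8 oocyte markers summed to at most 26.995 CPM in any library, nearly all of it OOEP, while the oocyte factor BMP15 was at 0 in all libraries and the egg coat gene ZP2 reached at most 0.259 CPM. The 6 leukocyte markers reached at most 9.79 CPM and the 6 endothelial markers 44.6 CPM, the latter in early_MGC. Of the 5 red cell markers, HBB and SLC4A1 were at 0 in all libraries, while the globin gene HBA reached 30.8 to 71.9 CPM in the late_CC libraries other than late_CC 3 (0.415 CPM). The granulosa markers themselves summed to 1565, 1115, 2467, 4157 and 11438 CPM on average in secondary_GC, early_MGC, early_CC, late_MGC and late_CC. The part of these marker differences in the results below was not tested. In bulk samples, fewer cells of a type and less RNA per cell cannot be told apart.

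Per kilobase of exon, the scale on which genes can be compared, GAPDH had the highest mean level over all libraries (2399 CPM per kb), followed by ENO1 (1198), LDHB (629), PGK1 (582), LDHA (383) and ALDOA (349). The mutase PGAM1, the pyruvate kinase gene PKM and SLC2A3 followed at 219, 204 and 202. The lowest detected members were ENO2 (0.7104) and BPGM (0.827). TPI1, the isomerase that keeps both triose phosphates in the pathway, stood at only 13.2 CPM per kb. Of its 1763 exon bases, 1122 overlap another gene, and reads there are ambiguous to the counter, so its level is not comparable with the others. Shorter overlaps touch PFKP (847 of 3883 bases), HK1 (720 of 5933), ENO2, PDHA1 and PDHB.

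Together the members took 1.26 ± 0.366% (mean ± SD, n = 4) of all counts in secondary_GC, 0.545 ± 0.138% (n = 5) in early_MGC and 1.77 ± 0.1997% (n = 5) in early_CC. Their share was 0.675 ± 0.159% (n = 5) in late_MGC and 2.83 ± 1.22% (n = 5) in late_CC. The range in late_CC ran from 0.658% in late_CC 3 to 3.46%, so that this 1 library lay at the level of the mural groups while the other 4 lay above every library of the other groups. Per library, CPM values are unscaled. Against the scaled fits below they shift all genes by up to 0.20 on the log2 scale, in the comparison of late_CC with late_MGC.

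**Figure D1:**
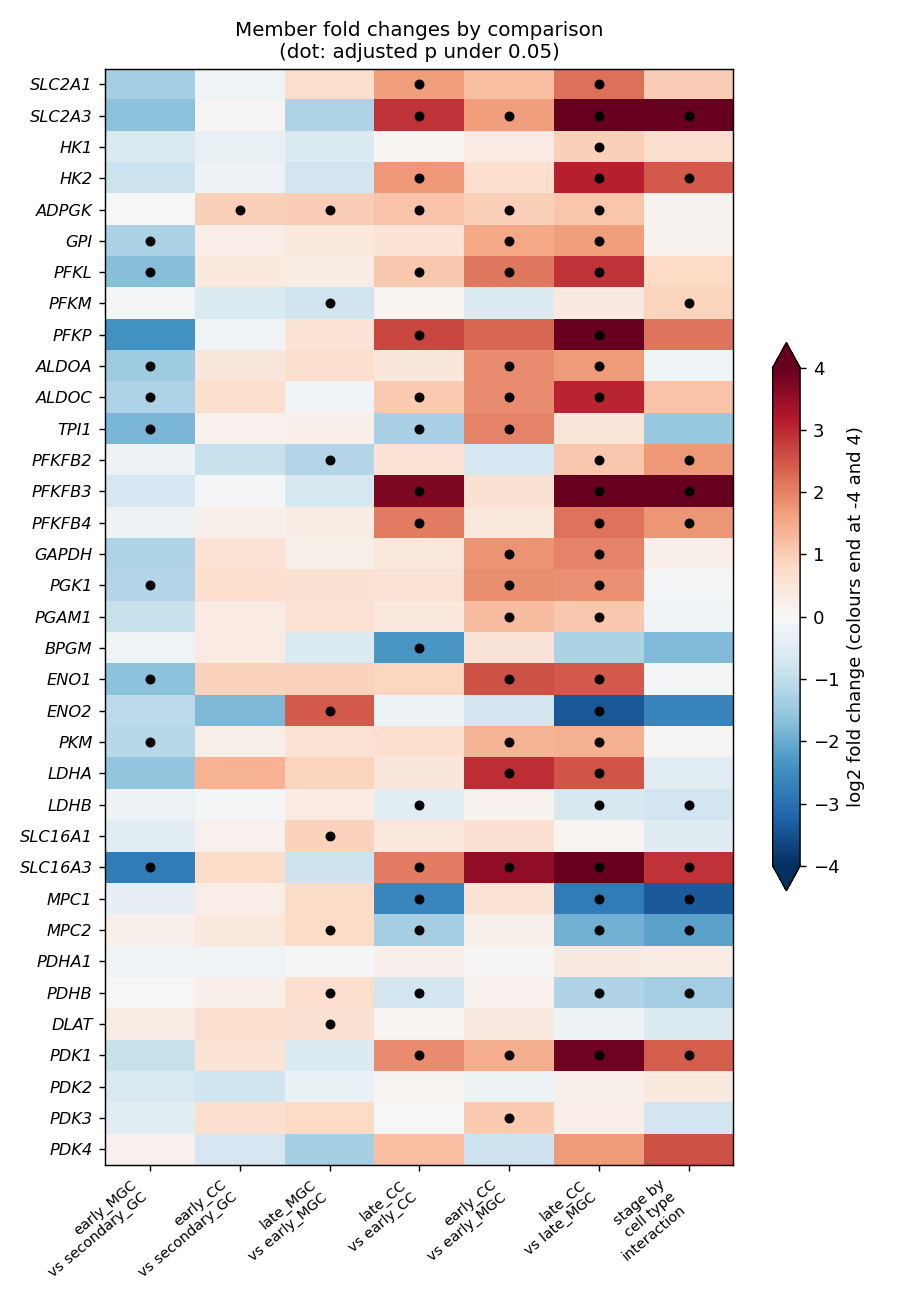
Log2 fold changes of the 35 tested members (rows, in order of the pathway) in 6 comparisons and the interaction of stage and cell type (columns). Red is higher and blue lower in the group named first, colours end at -4 and 4, and dots mark adjusted p under 0.05. Dots are dense and red for late_CC against late_MGC (26 members called) and sparse for early_CC against secondary_GC (1 member).

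There were 6 comparisons and 1 interaction, each tested with edgeR's quasi-likelihood test, with p-values adjusted over all 14298 genes and a gene called at an adjusted p under 0.05. Several share a group (early_MGC enters 3 of them), so they are not independent of each other. From secondary_GC to early_MGC, 9 members fell and none rose, where 4.08% of all genes tested fell, 5.01% rose and 9.1% were called. The median log2 fold change of the members was -0.85 (all genes, -0.0039). Those that fell were enzymes from GPI to PKM and the lactate exporter SLC16A3. This count moved with single libraries: it was 5 without secondary_GC 1, 3 without secondary_GC 4, 5 without early_MGC 4 and 5 without early_MGC 5, 11 without secondary_GC 3, and 14 without the 3 libraries that stand apart, again with none higher.

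From secondary_GC to early_CC, 1 member was called, the ADP-dependent glucokinase ADPGK, which rose, where 0.944% of all genes rose and 1.99% were called. The members' median was 0.22 (all genes, 0.014). No member was called without secondary_GC 2 or 4 or without early_CC 1, 2, 3 or 4, and 7 were called without the 3 libraries that stand apart (4 higher, 3 lower).

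Of the early groups, 16 members were higher in early_CC than in early_MGC and none lower, where 6.71% of all genes were higher, 6.39% lower and 13.1% called. The median was 0.97 (all genes, 0.0065). The 16 were SLC2A3, ADPGK and 5 other members of the upper part of the pathway, 5 of the lower part, LDHA, SLC16A3, PDK1 and PDK3. Without the 3 libraries that stand apart, 17 were higher and 1, PDK4, was lower.

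Between the late groups the count was 26. In late_CC 21 members were higher and 5 lower than in late_MGC, where 18.9% of all genes were higher, 20.8% lower and 39.7% called. The median was 1.42 (all genes, 0.022), and without the 3 libraries that stand apart 24 were higher and 5 lower. Between late_CC and early_CC 17 members were called, 11 higher and 6 lower in late_CC, where 22.5% of all genes were higher, 22.7% lower and 45.2% called, so that the share of members called was close to that of all genes. The median was 0.47 (all genes, 0.039). Without late_CC 3, 19 rose and 4 fell, and without all 3 libraries that stand apart 19 rose and 5 fell. From early_MGC to late_MGC 6 members rose and 2 fell, where 9.77% of all genes rose, 9.3% fell and 19.1% were called. The median was 0.33 (all genes, 0.05), and without the 3 libraries that stand apart 7 rose and 6 fell.

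The interaction tested whether the change from early to late antral follicles differed between cumulus and mural cells. It called 12 members, 8 with a more positive change in cumulus cells and 4 with a more negative one, where 14.5% of all genes were called more positive, 16.9% more negative and 31.4% in all. The median was 0.13 (all genes, 0.038). Without the 3 libraries that stand apart it called 18, 14 of them positive.

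Without late_MGC 3, late_CC 3 and early_MGC 4, edgeR's calls changed for the members named here. From secondary_GC to early_MGC, PFKP (-2.48, adjusted p = 0.00024), SLC2A1, HK1, PGAM1 and GAPDH were also called lower. Neither secondary_GC nor early_CC holds any of the 3 libraries, and the log2 fold changes between them stayed the same to 2 decimals for the members newly called, which were DLAT, ALDOC and ENO1 (higher) and PFKM, PFKFB2 and PDK2 (lower). Between the early groups SLC2A1 (1.16, adjusted p = 0.010) and PFKP (2.35, adjusted p = 0.00015) became called higher in early_CC, PDK4 became called lower, and SLC2A3 lost its call (1.54, adjusted p = 0.058). With stage in mural cells SLC2A3, HK1 (-0.71, adjusted p = 0.0077), PFKP and PDK4 became called lower and ALDOA and ENO1 higher, and ENO2 lost its call. From early_CC to late_CC, GPI, ALDOA, GAPDH, PGK1, PGAM1, ENO1, PKM and SLC16A1 became called higher and PDK4 lower, and LDHB and TPI1 lost their calls. Between the late groups PDK3 (0.99, adjusted p = 0.0029, against 0.27 in all libraries), PDHA1 and PFKM became called higher in late_CC. The interaction became called for SLC2A1, HK1 (0.9998, adjusted p = 0.0043), PFKL (1.27, adjusted p = 0.0074), PFKP, ALDOC and PDK4, all positive. The members follow by their place in the pathway, with values from all libraries unless others are named.

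SLC2A3 (ENSBTAG00000004556, chromosome 5, 101438341 to 101451219 on ARS-UCD1.2) codes for GLUT3, a high-affinity glucose carrier, and had the largest ratio of highest to lowest group mean (64.9) among the members above 10 CPM in every group, with all libraries. Its CPM in late_CC 1 to 5 were 2133, 3413, 1001, 5477 and 3213. In late_MGC they were 62.9, 21.9, 104, 26.02 and 19.7, with the 104 in late_MGC 3. All late_CC libraries stood above all late_MGC libraries, and late_CC 3, the lowest of its group, lay below the highest early_CC library. In early_CC the values were 137, 213, 1102, 278 and 271, and in early_MGC 119.8, 137, 89.9, 61.8 and 194. The 1102 CPM of early_CC 3 stood far above the other 4. In secondary_GC SLC2A3 was at 300.1, 714, 189 and 409 CPM. It was higher in late_CC than in late_MGC (log2 fold change 5.80 ± 0.66 (SE), adjusted p = 7.0e-07) and rose from early_CC to late_CC (2.89 ± 0.58, adjusted p = 0.00037). The interaction was 4.12 ± 0.79 (adjusted p = 0.00053). It was also called higher in early_CC than in early_MGC (1.67 ± 0.55, adjusted p = 0.049), a call lost without any 1 of 8 of the 10 libraries, and without early_CC 3 the value was 0.82 (adjusted p = 0.27). From early_MGC to late_MGC it was not called, and with late_MGC 3, late_CC 3 and early_MGC 4 left out it was -1.79 (adjusted p = 0.028).

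SLC2A1 (ENSBTAG00000009617, chromosome 3, 103309039 to 103337423) codes for GLUT1, the common basal glucose carrier. It stood at 153, 203, 192, 443 and 191 CPM in late_CC and at 51.8, 66.4, 119, 65.8 and 60.2 CPM in early_CC, with no overlap. It rose between them (1.68 ± 0.45, adjusted p = 0.0046). In late_MGC it was at 23.9, 21.8, 144, 21.5 and 19.97 CPM, the 144 again in late_MGC 3, and it was higher in late_CC (2.20 ± 0.46, adjusted p = 0.00068). Without the 3 libraries that stand apart that difference was 3.20, and the interaction, not called in all libraries (0.99, adjusted p = 0.25), was 2.04 with an adjusted p = 0.00084. Per kilobase SLC2A3 made up 88.2 ± 5.95% (n = 5) of both carriers in late_CC and 44.3 ± 11.7% (n = 5) in late_MGC, against 72.2 to 76.0% in the 3 other groups.

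**Figure D2:**
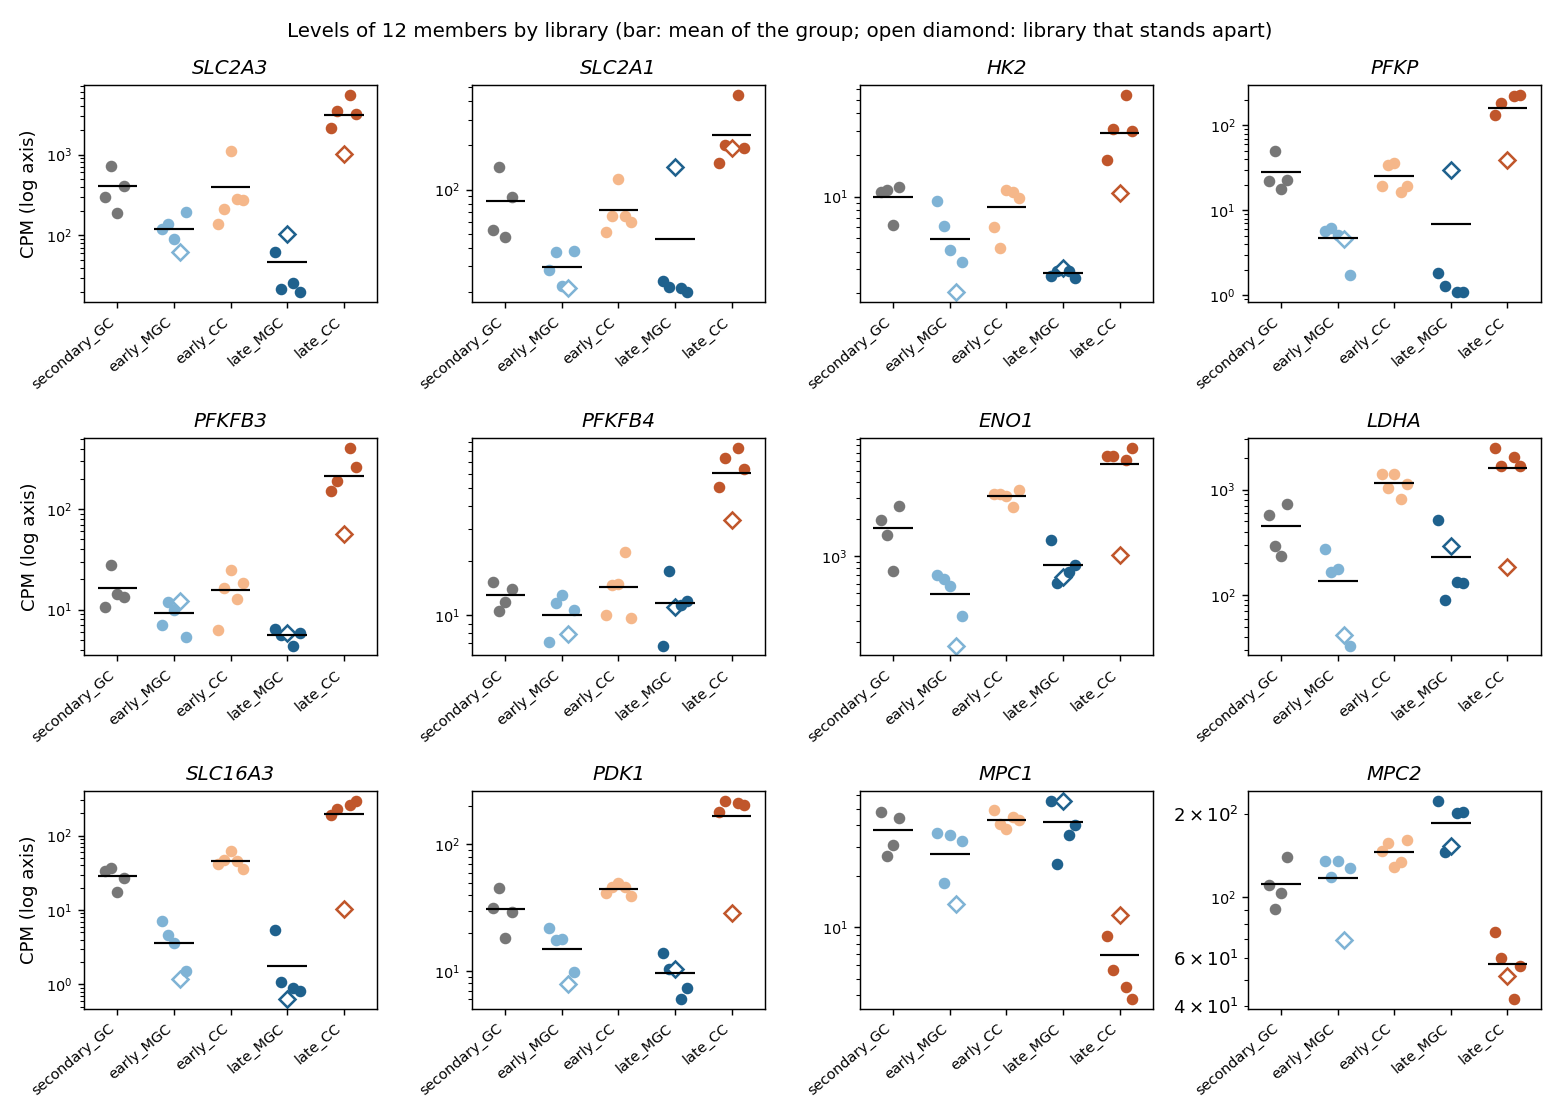
Levels of 12 members in each library, in CPM on a log axis, by group. Points are libraries, open diamonds the 3 libraries that stand apart, and bars the means of all libraries of a group. SLC2A3, HK2, PFKFB3, PFKFB4, SLC16A3 and PDK1 are high in late_CC on average, MPC1 and MPC2 are low there, and late_CC 3 lies below the other late_CC libraries for ENO1 (1032 CPM against 6139 to 7626) and LDHA (185 against 1655 to 2479). For SLC16A3 (10.2 CPM) and PDK1 (28.8 CPM) late_CC 3 lies below all early_CC libraries, and for SLC2A3 and HK2 within their range.

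Hexokinases trap glucose in the cell as its phosphate. HK1, the housekeeping form, ranged from 73.2 to 334 CPM over all libraries. HK2 (ENSBTAG00000013108, chromosome 11, 9743172 to 9810098), a form that many tissues induce, stood at 18.5, 30.7, 10.6, 54.6 and 29.7 CPM in late_CC and at 2.64, 2.90, 3.05, 2.88 and 2.56 in late_MGC. The late groups did not overlap, and the late_MGC libraries lay closer together than those of any other group. In early_CC HK2 stood at 6.08, 4.24, 11.3, 10.9 and 9.84 CPM, a range that holds late_CC 3 and lies below the other 4 late_CC libraries. HK2 rose from early_CC (1.73 ± 0.36, adjusted p = 0.00034), was higher than in late_MGC (3.11 ± 0.38, adjusted p = 6.5e-07) and had an interaction of 2.46 ± 0.51 (adjusted p = 0.00072). Its share of both hexokinases per kilobase was 17.2 ± 3.22% (n = 5) in late_CC and 4.73 to 6.46% on average in the other groups, and late_CC 3 (17.8%) did not differ from its group in this. HK1 was higher in late_CC than in late_MGC (0.97 ± 0.24, adjusted p = 0.0024). The 75.2 CPM of late_CC 3 lay within the late_MGC range (73.2 to 141), and the other 4 late_CC libraries stood at 181 to 293. With offsets corrected for gene length the HK1 value was 0.53 and no longer called (adjusted p = 0.067).

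ADPGK, which phosphorylates glucose with ADP in place of ATP, was called in 5 comparisons. It averaged 49.1 ± 12.3 CPM (n = 4) in secondary_GC and 43.6 ± 6.45 (n = 5) in early_MGC. The level was 91.8 ± 18.1 (n = 5) in early_CC, 79.95 ± 23.7 (n = 5) in late_MGC and 200.4 ± 44.5 (n = 5) in late_CC. All late_CC libraries stood above those of the other groups, late_CC 3 included (241 CPM). ADPGK was higher in early_CC than in secondary_GC (0.95 ± 0.24, adjusted p = 0.037) and early_MGC (0.97 ± 0.23, adjusted p = 0.0061). It rose with stage in mural cells (0.996 ± 0.23, adjusted p = 0.003) and cumulus cells (1.13 ± 0.23, adjusted p = 0.00026), and was higher in late_CC than in late_MGC (1.10 ± 0.23, adjusted p = 0.00039). The interaction was not called. The difference from secondary_GC lost its call without any 1 of 7 of the 9 libraries (adjusted p up to 0.121).

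Phosphofructokinase makes the committed step, and it has 3 forms. PFKP, the platelet form (ENSBTAG00000002683, chromosome 13, 45107041 to 45161102), stood at 133, 183, 39.2, 224 and 229 CPM in late_CC and at 19.6, 34.2, 35.9, 16.3 and 19.3 in early_CC. In late_MGC it stood at 1.81, 1.27, 29.6, 1.08 and 1.09 CPM, so that late_MGC 3 stood far above the other 4. PFKP rose from early_CC to late_CC (2.67 ± 0.75, adjusted p = 0.0065) and was higher in late_CC than in late_MGC by 4.42 ± 0.82 (adjusted p = 0.00024), or by 6.64 without late_MGC 3. Without the 3 libraries that stand apart the interaction was 4.53 (adjusted p = 1.7e-06), against 2.13 (adjusted p = 0.13) with them. From early_MGC to late_MGC PFKP was at 0.54 (adjusted p = 0.66) with and -1.61 (adjusted p = 0.0058) without those libraries, of opposite sign. PFKL, the liver form, was at 265, 355, 75.7, 461 and 429 CPM in late_CC, and at 122 to 189 in early_CC. It rose between them (1.08 ± 0.38, adjusted p = 0.022), a call lost without late_CC 4 or 5 and with length-corrected offsets (adjusted p up to 0.0765). PFKL was lower in early_MGC than in secondary_GC (-1.71 ± 0.40, adjusted p = 0.011), and higher in cumulus than in mural cells, by 2.11 ± 0.39 (adjusted p = 0.0014) in early and by 2.90 ± 0.40 (adjusted p = 5.2e-06) in late antral follicles. PFKM, the muscle form, fell from early_MGC to late_MGC (-0.79 ± 0.22, adjusted p = 0.013), from 21.8 ± 4.98 to 11.8 ± 0.963 CPM (n = 5 each), with no overlap. Its interaction was 0.90 ± 0.31 (adjusted p = 0.027), lost without early_MGC 2, early_MGC 4 or late_CC 5, with no filter on low counts and with length-corrected offsets (adjusted p up to 0.102). Per kilobase PFKP made up 26.3 ± 0.675% (n = 5) of the 3 forms in late_CC and 10.03 ± 2.34% (n = 5) in early_CC.

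Of the other enzymes of the upper part, GPI, which turns glucose-6-phosphate into fructose-6-phosphate, averaged 114 CPM in early_MGC against 306 in secondary_GC and 361 in early_CC. It was lower in early_MGC than in secondary_GC (-1.27 ± 0.31, adjusted p = 0.013), and higher in early_CC than in early_MGC (1.55 ± 0.30, adjusted p = 0.0017) and in late_CC than in late_MGC (1.68 ± 0.30, adjusted p = 1.0e-04). The 148 CPM of late_CC 3 lay within the late_MGC range (107 to 221), and the other 4 late_CC libraries stood at 526 to 704. The aldolases ALDOA and ALDOC split fructose bisphosphate. ALDOA was lower in early_MGC than in secondary_GC (-1.44 ± 0.36, adjusted p = 0.015; without secondary_GC 4, 0.076) and higher in cumulus cells, by 1.88 ± 0.35 (adjusted p = 0.0014) in early and 1.69 ± 0.35 (adjusted p = 0.00046) in late follicles. In late_CC 3 ALDOA stood at 222 CPM, below all late_MGC libraries (240 to 474), against 1404 to 1917 in the other 4 late_CC libraries. ALDOC stood at 677, 679, 172, 674 and 817 CPM in late_CC and at 79.0, 78.2, 16.6, 56.9 and 77.3 in late_MGC, with late_CC 3 and late_MGC 3 the lowest of their groups. ALDOC was lower in early_MGC than in secondary_GC (-1.22 ± 0.37, adjusted p = 0.040), a call lost without any 1 of 8 of the 9 libraries (adjusted p up to 0.146). It rose from early_CC to late_CC (1.06 ± 0.35, adjusted p = 0.017) and was higher in cumulus than in mural cells by 1.89 ± 0.36 (adjusted p = 0.0017) and 3.04 ± 0.38 (adjusted p = 1.1e-06). TPI1, subject to the overlap above, was lower in early_MGC than in secondary_GC (-1.81 ± 0.52, adjusted p = 0.031) and early_CC (by 1.99 ± 0.50, adjusted p = 0.011), and fell from early_CC to late_CC (-1.30 ± 0.49, adjusted p = 0.033), the last lost without any 1 of 5 libraries, late_CC 3 among them (adjusted p up to 0.0705). The difference from secondary_GC was likewise lost without any 1 of 5 libraries (adjusted p up to 0.136).

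The PFKFB enzymes make and break fructose-2,6-bisphosphate, the strongest activator of phosphofructokinase. PFKFB3 (ENSBTAG00000008401, chromosome 13, 17205507 to 17372393), whose form mostly makes it, stood at 152, 193, 56.3, 406 and 262 CPM in late_CC. In the other 4 groups no library exceeded 27.5 CPM, and the late_MGC values were 6.43, 5.56, 5.78, 4.39 and 5.84. Even late_CC 3 lay above every library of the other groups. PFKFB3 rose from early_CC to late_CC by 3.74 ± 0.42 (adjusted p = 5.7e-07), was higher than in late_MGC by 5.00 ± 0.45 (adjusted p = 3.5e-08) and had an interaction of 4.38 ± 0.57 (adjusted p = 1.2e-05). PFKFB4 stood at 50.7, 73.7, 33.6, 83.3 and 63.8 CPM in late_CC and at 6.82 to 22.3 CPM in all other libraries. It rose from early_CC (2.07 ± 0.25, adjusted p = 1.1e-06), was higher than in late_MGC (2.17 ± 0.26, adjusted p = 4.4e-07) and had an interaction of 1.76 ± 0.35 (adjusted p = 0.00055). PFKFB2 fell from early_MGC to late_MGC (-1.16 ± 0.28, adjusted p = 0.0043), from 7.67 ± 2.72 to 3.23 ± 1.27 CPM (n = 5 each), and was higher in late_CC (1.07 ± 0.28, adjusted p = 0.0032; interaction 1.74 ± 0.39, adjusted p = 0.0014). All 3 detected regulators were higher in late cumulus than in late mural cells, where 18.9% of all genes were higher. None was called between the early groups, where 13.1% of all genes were called.

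In the lower part of the pathway, from triose phosphate to pyruvate, 5 of the 7 members were higher in cumulus than in mural cells at both stages. Of all genes, 6.71% were higher in cumulus cells in early and 18.9% in late follicles, and the share higher in both was not counted. ENO1 (enolase; ENSBTAG00000013411, chromosome 16, 44553028 to 44566771) stood at 1966, 1492, 756 and 2596 CPM in secondary_GC, at 707, 654, 579, 189 and 328 in early_MGC and at 3213, 3208, 3075, 2520.1 and 3446 in early_CC. In late_MGC it stood at 1352, 614, 686, 750.2 and 859 CPM and in late_CC at 6569.8, 6618, 1032, 6139 and 7626. Both early groups were fully apart, while late_CC 3 lay within the late_MGC range and the other 4 late_CC libraries above it. ENO1 was higher in cumulus cells by 2.55 ± 0.41 (adjusted p = 0.00053) in early and 2.46 ± 0.41 (adjusted p = 4.8e-05) in late follicles, and lower in early_MGC than in secondary_GC (-1.64 ± 0.42, adjusted p = 0.016; without secondary_GC 4, 0.080). Between late_CC and early_CC it was not called in all libraries, and without late_CC 3 it was 1.11 (adjusted p = 0.0074).

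GAPDH, which makes the NADH of glycolysis, stood at 12276, 9138, 1013, 9375 and 10539 CPM in late_CC, at 4812 to 6887 in early_CC and at 970.2 to 2274 in early_MGC. It was higher in cumulus cells by 1.79 ± 0.40 (adjusted p = 0.0043) in early and 1.98 ± 0.40 (adjusted p = 0.00033) in late follicles. The 1013 CPM of late_CC 3 nevertheless lay below all late_MGC libraries (1225 to 2725 CPM). PGK1, the kinase that makes the first ATP, was lower in early_MGC than in secondary_GC (-1.19 ± 0.33, adjusted p = 0.026) and higher in cumulus cells by 1.87 ± 0.32 (adjusted p = 0.00071) and 1.83 ± 0.32 (adjusted p = 7.2e-05). PGAM1 was higher in cumulus cells by 1.23 ± 0.29 (adjusted p = 0.0064) and 1.08 ± 0.29 (adjusted p = 0.0042). PKM was lower in early_MGC than in secondary_GC (-1.14 ± 0.32, adjusted p = 0.028) and higher in cumulus cells by 1.36 ± 0.31 (adjusted p = 0.0050) and 1.42 ± 0.31 (adjusted p = 0.00071). In late_CC 3 PGK1 (565 CPM), PGAM1 (209.8) and PKM (269.2) lay within the late_MGC ranges (384 to 815, 188 to 472 and 250.5 to 701). The PGK1 and PKM calls against secondary_GC were each lost without secondary_GC 1, secondary_GC 4, early_MGC 4 or early_MGC 5, and that of PKM also without secondary_GC 2 (adjusted p up to 0.105). From early_CC to late_CC, edgeR's quasi-likelihood test on all libraries called none of GAPDH, PGK1, PGAM1, ENO1 and PKM, with ENO1 and PKM at an unadjusted p under 0.05. On the same libraries limma-voom with sample quality weights called PGK1 (0.73), PGAM1 (0.54), ENO1 (1.02) and PKM (0.76) higher, and edgeR with length-corrected offsets called PGK1 and ENO1. Without late_CC 3 edgeR called all 5 higher, by 0.65 to 1.11, as well as GPI (0.78, adjusted p = 0.011), ALDOA (0.74, adjusted p = 0.018) and SLC16A1 (0.62, adjusted p = 0.015).

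The other 2 members of the lower part had low levels. BPGM, which makes the 2,3-bisphosphoglycerate of red cells, fell from early_CC to late_CC (-2.34 ± 0.67, adjusted p = 0.0059), but from a mean of only 1.86 to 0.359 CPM, with overlap. The late_CC mean rests on 30 counts in 5 libraries. ENO2, the neuronal enolase, stood at 0.939, 2.60, 20.1, 0.961 and 5.98 CPM in late_MGC. It was called higher there than in early_MGC (2.46 ± 0.86, adjusted p = 0.047), but at 1.35 (adjusted p = 0.23) without late_MGC 3, where the stromal markers LUM and DCN were high. The call was also lost without early_MGC 1, 3, 4 or 5 or late_MGC 5, with RLE scaling, no filter on low counts, limma-voom or only the groups compared (adjusted p from 0.0516). The part of these in the result was not tested. It was lower in late_CC than in late_MGC (-3.40 ± 0.91, adjusted p = 0.0044; without the 3 libraries that stand apart -3.44).

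**Figure D3:**
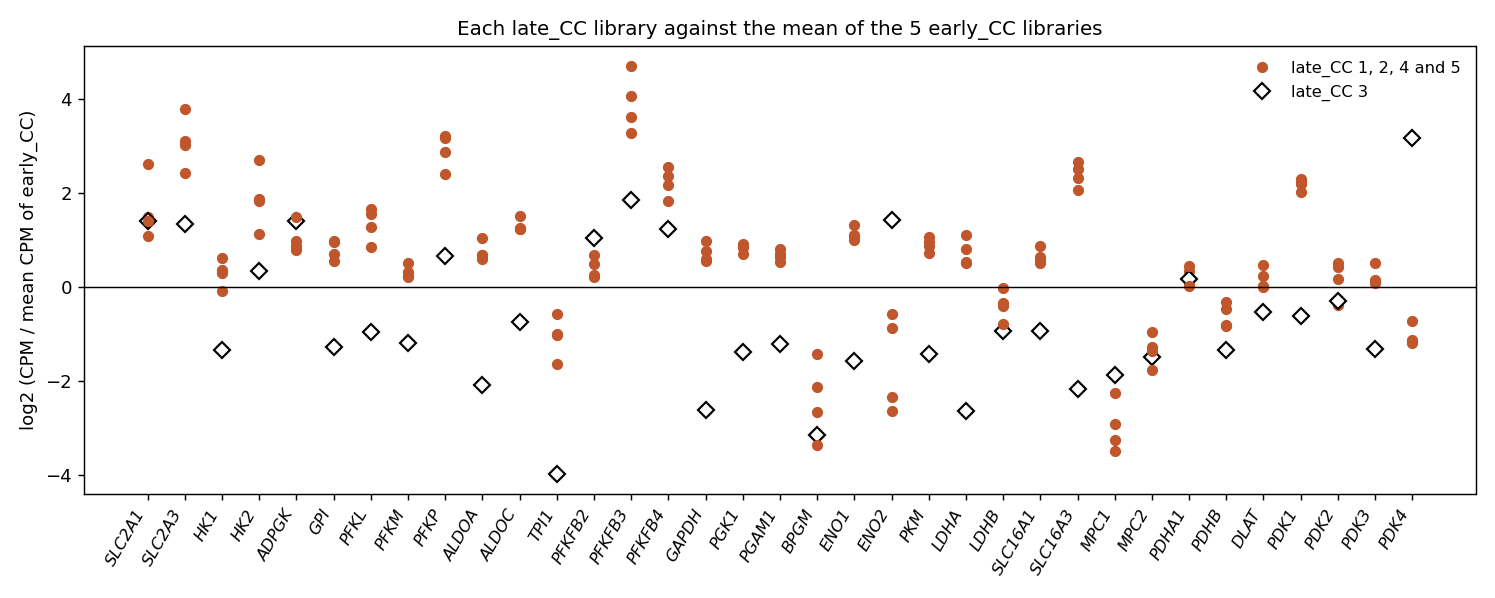
Each of the 5 late_CC libraries against the mean of the 5 early_CC libraries, as log2 of the CPM ratio, for the 35 detected members in pathway order. In late_CC 3 (open diamonds) 25 members lay below and 4 above the range of the other 4 late_CC libraries; PFKFB3, PFKP and SLC2A3 stayed above 0 in it, and MPC1 and MPC2 below 0.

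Lactate dehydrogenase and the monocarboxylate carriers set the exit to lactate. LDHA (ENSBTAG00000008683, chromosome 29, 26290893 to 26301350), the form usually tied to lactate production, stood at 572, 290.3, 234 and 727 CPM in secondary_GC, at 271, 164, 176, 41.8 and 33.3 in early_MGC and at 1398, 1045, 1414, 806 and 1141 in early_CC. In late_MGC it stood at 513, 90.6, 292, 132 and 130.1 CPM and in late_CC at 2479, 1658, 185, 2023 and 1655. The early groups did not overlap, and in the late groups late_CC 3 alone lay within the late_MGC range. LDHA was higher in cumulus cells by 2.96 ± 0.64 (adjusted p = 0.0046) in early and 2.53 ± 0.63 (adjusted p = 0.0030) in late follicles. LDHB, the form of oxidative tissues, lay between 676 and 1489 CPM in all 24 libraries. It was called lower in late_CC than in late_MGC (-0.63 ± 0.18, adjusted p = 0.0076) and early_CC (-0.45 ± 0.18, adjusted p = 0.046), with an interaction of -0.78 ± 0.26 (adjusted p = 0.023). The fall from early_CC was lost without any 1 of 9 of the 10 libraries and with length-corrected offsets (-0.24, adjusted p = 0.24), and the interaction was lost without late_MGC 1 and with length-corrected offsets (adjusted p up to 0.0732). The difference from late_MGC was lost in the fit of only the groups compared (adjusted p = 0.071). Per kilobase LDHA made up 46.5 ± 5.02% (n = 5) of both forms in early_CC and 10.3 ± 6.28% (n = 5) in early_MGC. In late_CC it made up 56.8 ± 20.4% (n = 5), or 65.7 ± 5.08% (n = 4) without late_CC 3 (21.2%), and in late_MGC 14.4 ± 8.31% (n = 5).

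SLC16A3 (ENSBTAG00000017461, chromosome 19, 50634317 to 50642204) codes for MCT4, the carrier of lactate-exporting cells. It stood at 33.3, 36.4, 17.2 and 27.3 CPM in secondary_GC, at 7.22, 4.62, 3.60, 1.19 and 1.54 in early_MGC and at 41.0, 47.4, 61.4, 45.7 and 35.8 in early_CC. The late_MGC values were 5.32, 1.09, 0.643, 0.901 and 0.807 CPM and in late_CC at 192, 230.4, 10.2, 261 and 291. Cumulus and mural cells did not overlap at either stage, although late_CC 3 was far below its group. SLC16A3 was higher in cumulus cells by 3.55 ± 0.69 (adjusted p = 0.0025) in early and 6.45 ± 0.79 (adjusted p = 2.0e-06) in late follicles. It was lower in early_MGC than in secondary_GC (-2.80 ± 0.70, adjusted p = 0.016), rose from early_CC to late_CC (2.06 ± 0.63, adjusted p = 0.011) and had an interaction of 2.90 ± 0.93 (adjusted p = 0.021). SLC16A1, which codes for the general carrier MCT1, was higher in late_MGC than in early_MGC (0.92 ± 0.24, adjusted p = 0.0094) at 40.2 to 65.4 against 20.4 to 39.1 CPM, with no overlap. Per kilobase SLC16A3 made up 3.76 ± 3.40% (n = 5) of both carriers in late_MGC and 70.8 ± 20.7% (n = 5) in late_CC, or 80.02 ± 3.18% (n = 4) without late_CC 3.

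**Figure D4:**
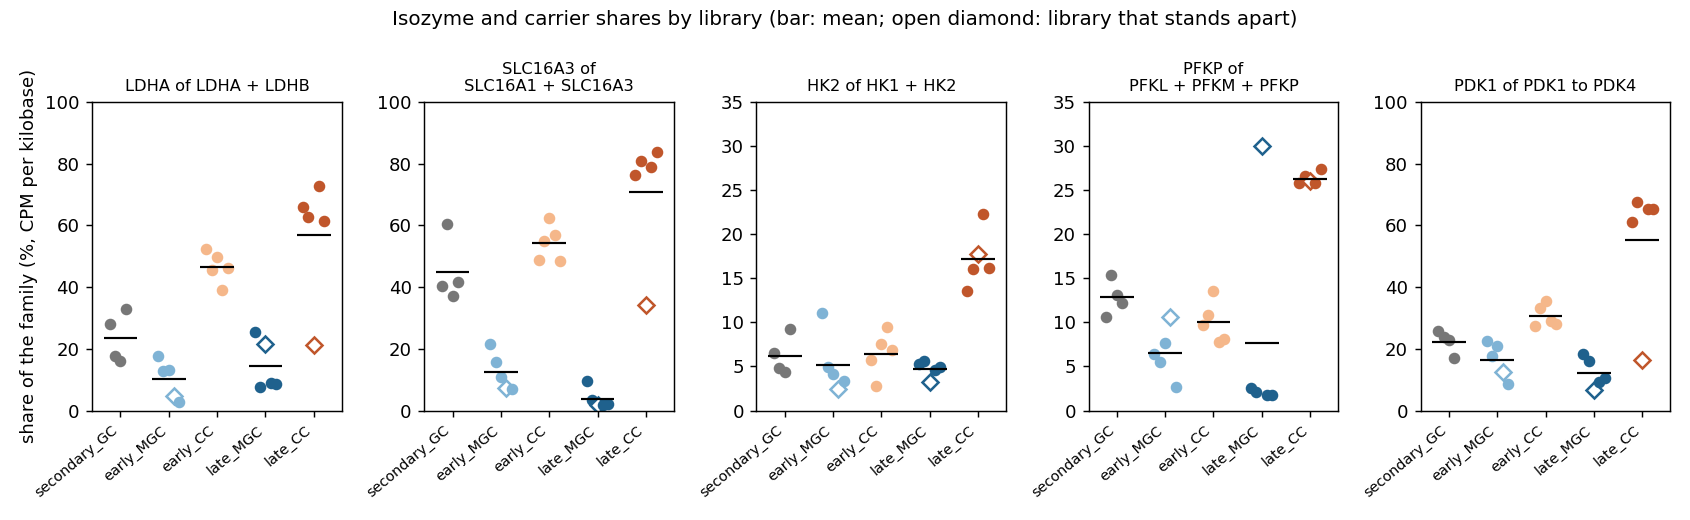
Share of 1 form within its family per kilobase (percent), by library and group, for LDHA, SLC16A3, HK2, PFKP and PDK1. Points are libraries, open diamonds the 3 that stand apart, and bars means. LDHA, SLC16A3 and PDK1 make up most of their family in 4 late_CC libraries but 21.2, 34.0 and 16.3% in late_CC 3, while HK2 and PFKP shares in late_CC 3 lie with the rest of its group.

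Of 9 members for entry of pyruvate into mitochondria, 3 fell and 1 rose from early_CC to late_CC, where 22.7% of all genes fell and 22.5% rose, so that the share of these members called was close to that of all genes. MPC1 and MPC2 form the mitochondrial pyruvate carrier. MPC1 (ENSBTAG00000027879, chromosome 9, 101357585 to 101370280) stood at 8.93, 5.65, 11.8, 4.47 and 3.80 CPM in late_CC, with 11.8 in late_CC 3, and at 49.1, 40.7, 38.2, 44.9 and 42.8 in early_CC. The late_MGC values were 55.5, 23.7, 55.5, 35.2 and 40.4 CPM. All late_CC libraries lay below all libraries of the other groups, and the 13.8 CPM of early_MGC 4 was the nearest. MPC1 fell from early_CC by 2.60 on the log2 scale (SE 0.32, adjusted p = 1.1e-06), was lower than in late_MGC (-2.79 ± 0.32, adjusted p = 3.6e-07) and had an interaction of -3.36 ± 0.44 (adjusted p = 1.1e-05). MPC2 (ENSBTAG00000020968, chromosome 3, 752398 to 783103) stood at 74.4, 60.04, 51.4, 42.6 and 55.9 CPM in late_CC and at 128 to 161 in early_CC. It rose in mural cells, from 117 ± 27.5 to 186 ± 34.1 CPM (n = 5 each; 0.79 ± 0.19, adjusted p = 0.0054), and fell in cumulus cells (-1.33 ± 0.20, adjusted p = 9.2e-06). It was lower in late_CC than in late_MGC (-1.92 ± 0.20, adjusted p = 9.9e-08), and the interaction was -2.13 ± 0.28 (adjusted p = 1.0e-05). MPC1 and MPC2 have the shortest exon lengths of all members (330 and 762 bases). With length-corrected offsets the fall of MPC2 from early_CC to late_CC was -0.69 and still called (adjusted p = 0.00022).

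Pyruvate dehydrogenase turns pyruvate into acetyl-CoA. Its E1 subunit gene PDHB rose in mural cells (0.67 ± 0.20, adjusted p = 0.022), a call lost without early_MGC 2, early_MGC 4 or late_MGC 1, or in the fit of only the groups compared (adjusted p up to 0.0804). It fell in cumulus cells (-0.72 ± 0.20, adjusted p = 0.0052; with length-corrected offsets -0.43, adjusted p = 0.029) and was lower in late_CC than in late_MGC (-1.21 ± 0.20, adjusted p = 4.6e-05), with an interaction of -1.39 ± 0.29 (adjusted p = 0.00073). In CPM it stood at 64.7, 45.7, 31.8, 58.1 and 45.9 in late_CC and at 78.6 to 124 in late_MGC, with no overlap. The partner subunit gene PDHA1 lay between 12.9 and 29.7 CPM, and edgeR called it in no comparison of all libraries. Its difference of late_CC from late_MGC was 0.36 (adjusted p = 0.083), and it was called higher by limma-voom (0.44, adjusted p = 0.0096), without late_MGC 3 (0.45, adjusted p = 0.032) and without the 3 libraries that stand apart (0.44, adjusted p = 0.047). DLAT, which codes for the E2 core, rose in mural cells (0.61 ± 0.17, adjusted p = 0.013), and in the fit of only those 2 groups it was not called (adjusted p = 0.060). From secondary_GC to early_CC DLAT was called higher by DESeq2 (0.59, adjusted p = 0.031), limma-voom (0.62, adjusted p = 0.030) and edgeR with length-corrected offsets (0.69, adjusted p = 0.046). With those offsets edgeR also called it lower in late_CC than in late_MGC (-0.46, adjusted p = 0.041), with an interaction of -0.91 (adjusted p = 0.0083).

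The 4 PDK kinases phosphorylate and inhibit pyruvate dehydrogenase. PDK1 (ENSBTAG00000016836, chromosome 2, 24026650 to 24069014) stood at 31.5, 45.7, 18.3 and 29.1 CPM in secondary_GC, at 21.98, 17.5, 17.9, 7.88 and 9.83 in early_MGC and at 41.3, 45.9, 49.8, 46.1 and 39.5 in early_CC. The late_MGC values were 13.9, 10.4, 10.3, 6.07 and 7.31 CPM and in late_CC at 181, 219, 28.8, 212 and 203. The 28.8 of late_CC 3 lay below all early_CC libraries. PDK1 was higher in cumulus cells by 1.45 ± 0.37 (adjusted p = 0.011) in early and 3.89 ± 0.40 (adjusted p = 1.3e-07) in late follicles, rose from early_CC to late_CC (1.91 ± 0.37, adjusted p = 0.00022) and had an interaction of 2.44 ± 0.52 (adjusted p = 0.0011). Its share of the 4 kinases per kilobase was 30.6 ± 3.51% (n = 5) in early_CC and 55.1 ± 21.8% (n = 5) in late_CC, or 64.8 ± 2.64% (n = 4) without late_CC 3. PDK3 was called higher in early_CC than in early_MGC (1.05 ± 0.35, adjusted p = 0.045), a call lost without any 1 of 8 of the 10 libraries (adjusted p up to 0.106). PDK2 was called in no comparison by edgeR on all libraries. From secondary_GC to early_CC it was at -0.81 (adjusted p = 0.12), and it was called lower there by DESeq2 (-0.88, adjusted p = 0.048) and by edgeR without the 3 libraries that stand apart (adjusted p = 0.046).

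PDK4, the kinase of fasting and fat use, was called in no comparison by edgeR with all libraries, and its late_CC values turned on 1 library. They were 4.75, 6.24, 93.9, 4.53 and 4.65 CPM, the 93.9 in late_CC 3, against 9.76, 10.1, 10.01, 12.9 and 9.36 in early_CC. The late_MGC values were 4.17, 3.93, 18.9, 3.79 and 2.47 CPM, the 18.9 in late_MGC 3. With all libraries the log2 fold change from early_CC to late_CC was 1.22 (adjusted p = 0.21), and with late_MGC 3, late_CC 3 and early_MGC 4 left out it was -1.06 (adjusted p = 0.0080), of the opposite sign. Without late_CC 3 alone it was -1.06 (adjusted p = 0.073). From early_MGC to late_MGC it was -1.33 (adjusted p = 0.25) with and -2.30 (adjusted p = 2.3e-05) without them, and between the late groups 1.72 with and 0.22 without them, not called in either. On all libraries limma-voom called PDK4 lower from early_MGC to late_MGC (-2.17, adjusted p = 0.00011) and from early_CC to late_CC (-0.84, adjusted p = 0.049). The interaction was called by DESeq2 (2.58, adjusted p = 0.047) and limma-voom (1.33, adjusted p = 0.046), and by edgeR without the 3 libraries (1.23, adjusted p = 0.039). With only late_CC 3 left out, edgeR gave an interaction of 0.27 (adjusted p = 0.79). The difference between the late groups was then -0.56 (adjusted p = 0.365), of opposite sign to that in all libraries. With only late_MGC 3 left out, edgeR called both, at 3.33 (adjusted p = 0.023) and 2.50 (adjusted p = 0.022). In late_CC 3 the granulosa markers summed to 2301 CPM against 8923 to 16934.5 in the other 4, and the theca and stroma markers to 66.1 against 477 to 655. Most of the gap in the latter was INSL3, at 26.9 against 382 to 597 CPM, and INSL3 averaged 94.2 CPM or more in every group. The part of these differences in the member levels of late_CC 3 was not tested. Its mean correlation over the 14263 tested genes that are no members was highest with the other late_CC libraries (0.933) and next with late_MGC (0.896).

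Of 74 further genes around the pathway (other carriers, isozymes, gluconeogenesis, pentose phosphates, glycogen, shuttles and the citric acid cycle), 62 were tested. From early_CC to late_CC 10 rose and 24 fell, where 22.5% of all genes rose and 22.7% fell. Among 14 citric acid cycle genes tested, 2 rose and 9 fell there, and the interaction was negative for 10 and positive for none, where it was negative for 16.9% of all genes and positive for 14.5%. In early_CC 6 of the 14 were higher than in early_MGC and none lower (6.71 and 6.39% of all genes), and 4 rose and none fell in mural cells (9.77 and 9.3% of all genes). The interaction was positive for 3 of 10 glycogen and hexosamine genes and negative for none (14.5 and 16.9% of all genes). From early_CC to late_CC 5 of these 10 rose and none fell, where 22.5% of all genes rose and 22.7% fell. The share called in either direction was near the 45.2% of all genes. The largest called changes there were those of SLC2A12 (5.64), of the muscle mutase PGAM2 (-4.36) and of the insulin-responsive glucose carrier SLC2A4 (-3.49), all at low levels. SLC2A12, which codes for a further glucose carrier, reached 0.969 to 4.02 CPM in late_CC against 5 counts in all early_CC libraries together. Its fitted value therefore depends on the fit's prior count. PGAM2 stood at 0 to 0.884 CPM in late_CC against 2.80 to 9.95 in early_CC, and SLC2A4 at 0 to 0.343 against 0.770 to 2.07. The largest called interactions were those of the malate dehydrogenases MDH2 (-2.65) and MDH1 (-2.23), both parts of the malate-aspartate shuttle, and of the gluconeogenic FBP1 (-2.44, lost without the 3 libraries that stand apart, adjusted p = 0.089). MDH2 stood at 107 to 210.2 CPM in late_CC and at 323 to 536 in late_MGC, with no overlap.

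In the other comparisons of these genes, 10 were higher in early_CC than in early_MGC, MDH2 (1.08) and G6PC3 (1.03) among them, and 3 were lower. Of all genes, 6.71% were higher and 6.39% lower there. From secondary_GC to early_MGC 2 rose and 4 fell, where 5.01% of all genes rose and 4.08% fell, led by SLC2A8 (-1.10), G6PC3 (-1.02) and BSG (-0.90), the chaperone of monocarboxylate carriers. From secondary_GC to early_CC edgeR's quasi-likelihood test called 0 of the 62, with 13 at an unadjusted p under 0.05, and DESeq2 and limma-voom called 2 each. Of all genes, the edgeR test called 1.99% there. From early_MGC to late_MGC 12 rose and 7 fell, against 19.1% of all genes called. GFPT2 had the largest change (4.43), with 98.6 CPM in late_MGC 3 and at most 1.44 in the other 4 libraries, and with late_MGC 3, late_CC 3 and early_MGC 4 left out it was 0.33 (adjusted p = 0.79). LDHD (-3.69) and PGAM2 (-2.82) followed, both at no more than 0.854 CPM in late_MGC. Between the late groups 8 were higher and 18 lower in late_CC, against 39.7% of all genes called, led by SLC2A12 (5.05), GFPT2 (-4.76, or -0.99 without the 3 libraries) and SLC2A4 (-2.08). SLC2A4 did not exceed 0.996 CPM in either late group.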

How the data were processed

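RNA of 24 granulosa cell libraries was sequenced. The deposited table holds raw counts per gene, whole reads assigned to exons by the authors, with gene positions and exon lengths per the file headers. The submitters' processing notes name fastp 0.20.0, HISAT2 2.1.0, SAMtools 1.10, featureCounts 2.0.0 and the build bosTau9 (ARS-UCD1.2). Per the file headers the counting command set no strand, pairing or multi-mapping option, so that reads of overlapping genes cannot be assigned by strand. Of the columns of counts, 1 that names no sample was not used.

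The table gives Ensembl gene IDs. Symbols were assigned by position against RefSeq genes on ARS-UCD2.0, the assembly that followed, and this named 11219 of the 12219 genes that averaged 1 CPM or more (91.8%), with 96.8% of the counts in named genes. Of the members 34 were matched by reciprocal overlap of at least 0.5 and 2, SLC2A3 and PDHB, by a shared end within 100 bases with at least 80% of exon bases inside. Printed coordinates are those of the deposited table.

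Genes passing edgeR's expression filter (14298) were tested with edgeR 4.0.16 in R 4.3.3 (TMM scaling, robust quasi-likelihood fit of all 24 libraries by group, Benjamini-Hochberg over all genes, called under 0.05). Standard errors are those implied by the test statistic, and the common biological coefficient of variation was 42.4%. The script was tested on simulated data. Alternatives were RLE scaling, no filter, DESeq2 1.42.0, limma-voom (limma 3.58.1), length-corrected offsets, only the groups compared, a replicate block and leaving out each library. Leaving out the 3 libraries that stand apart was added after seeing the data. CPM is unscaled, and with no molecular identifiers the limits set by 3 counts cover counting error only. No 2 libraries of a group agreed within sampling noise (lowest chi-square per degree of freedom 17.4). The secondary_GC and late_MGC libraries carry numbers in column order, which only name them.

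The members and gene lists were chosen with earlier results of these data known. All members are accounted for, and fold change, standard error and adjusted p are printed for called members. Of the pathway neighbours, at most the 3 called genes of largest absolute change are named in each comparison.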

Additional observations from a re-analysis of the deposited data

Results flagged for a closer look

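Among 175 sets of member values (35 members in 5 groups), 28 held a library whose gap to its nearest neighbour was large against the range of its group, where chance gives about 1 in 20. Of the 28, 10 were in late_CC 3 and 7 in late_MGC 3, both named above as standing apart.

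In late_CC 3, low values were flagged for PFKM (7.06 CPM), ALDOC (171.6), GAPDH (1013), PGK1 (565), PGAM1 (209.8), ENO1 (1032), PKM (269.2) and PDK1 (28.79). High values were flagged there for ENO2 (1.938 CPM) and PDK4 (93.85). In late_MGC 3, high values were flagged for SLC2A1 (143.7 CPM), HK1 (141.3), PFKP (29.62), ENO2 (20.09), PKM (700.7), PDK3 (70.76) and PDK4 (18.91).

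The other flags were spread over 9 libraries. High values were those of SLC2A1 (118.8 CPM) and SLC2A3 (1102) in early_CC 3, SLC2A1 in late_CC 4 (442.6), PFKP in secondary_GC 2 (49.59) and TPI1 (23.23) and SLC16A3 (5.32) in late_MGC 1. BPGM in early_MGC 5 (2.843 CPM) and PDK4 in early_CC 4 (12.93) were also high. Low values were those of GPI in secondary_GC 3 (175 CPM), ALDOC in early_CC 2 (244.9) and MPC2 in early_MGC 4 (69.69).

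The change from early to late antral follicles differed between cumulus and mural cells, by the interaction term of edgeR's quasi-likelihood fit, for 12 of the 35 members tested, against 31.4% of all genes, and for 18 members without the 3 libraries that stand apart. On the log2 scale it was more positive in cumulus cells for SLC2A3 (4.12), HK2 (2.46), PFKM (0.90), PFKFB2 (1.74), PFKFB3 (4.38), PFKFB4 (1.76), SLC16A3 (2.90) and PDK1 (2.44). It was more negative for LDHB (-0.78), MPC1 (-3.36), MPC2 (-2.13) and PDHB (-1.39).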

How the results depend on the processing

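Of 89 member calls over the 7 comparisons, 69 held under every alternative run and 0 reversed. From secondary_GC to early_MGC, 9 members were called, 14 with DESeq2, 14 in the fit of only the groups compared and 14 without the 3 libraries that stand apart. Leaving out 1 library gave 3 to 11 members and 516 to 1524 genes in all (1301 with all libraries). From secondary_GC to early_CC, 1 member was called, 4 with DESeq2, 3 with limma-voom, 2 with length-corrected offsets, 5 with only the groups compared, 7 without the 3 libraries and 0 to 1 without 1 library. All genes called there were 285, with 728 for DESeq2, 799 for limma-voom, 964 for only the groups compared, 1304 without the 3 libraries and 150 to 358 without 1 library. From early_MGC to late_MGC, 8 members became 13 with limma-voom, 5 with only the groups compared, 13 without the 3 libraries and 6 to 10 without 1 library, and 2726 genes became 4753 with limma-voom and 1607 with only the groups compared. Between the early groups 1873 genes became 3262 with limma-voom, 3035 with only the groups compared, 3405 with a replicate block and 1222 to 1761 without 1 library. The cause of these shifts was not tested.

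Replicate numbers gave no clear sign of pairing: same-numbered libraries correlated at -0.131 to 0.209, and most correlated best with another number. However, number 1 correlated best with itself in all 3 pairs of groups (0.174 to 0.209), and number 2 between early_MGC and early_CC (0.157). With 5 libraries per group this cannot settle whether samples were paired. The secondary_GC and late_MGC libraries, which have no usable numbers, could not be checked. With the replicate block SLC16A3 (adjusted p = 0.117), PFKL and LDHB lost their calls from early_CC to late_CC and SLC2A3 lost its call between the early groups. Depth limits BPGM and ENO2 most. Promoter motifs were not run.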
